A study of Mus musculus with 4 samples.

Results

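The 4 ErbB receptor genes (Egfr, Erbb2, Erbb3 and Erbb4) and 6 genes of their ligands (Hbegf, Tgfa, Btc, Nrg1, Nrg2 and Nrg3) were followed through the cells of the postnatal dorsal ventricular-subventricular zone (V-SVZ). They were chosen by symbol in the gene column of the deposited matrices, which list 31053 genes, and all 10 were found in each library. The V-SVZ is the germinal layer that lines the lateral ventricle, and its dorsal wall was microdissected from OF1 mice, an outbred wild-type stock, at postnatal days 2, 12 and 22 (P2, P12 and P22). Viable cells were sorted on nuclear dyes and profiled with droplet-based scRNA-seq, in which each captured transcript carries a unique molecular identifier (UMI). There were 2 libraries at P12, named as independent experiments in the labels, and 1 library each at P2 and P22. No group was treated and no allele was altered. The labels name male mice, although the methods note a female at P2, and mice were pooled by time point, so how many mice each P12 library holds is not settled.

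ErbB receptors are membrane tyrosine kinases that work in pairs. EGF-type ligands (Hbegf, Tgfa and Btc) bind Egfr, and some of them also bind Erbb4, whereas neuregulins bind Erbb3 and Erbb4. Erbb2 has no ligand of its own and is the favoured partner of the other receptors, and Erbb3 has little kinase activity and signals through its partner. In the germinal zones around the ventricle, EGF receptor signaling is known for driving progenitor proliferation, neuregulin-ErbB4 signaling for guiding migrating neuroblasts, and ErbB3 for acting in cells of the oligodendrocyte lineage.

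Cells were assigned to 10 gates by marker thresholds modelled on those of the study, with its Egfr term left out because Egfr is itself under study here. Quiescent neural stem cells (qNSCs) had Slc1a3 and Prom1 and lacked Foxj1, Mki67 and Top2a. Among the cells that passed the study's threshold for activated progenitors, activated NSCs (aNSCs) lacked Dlx1 and Dlx2 and transit-amplifying progenitors (TAPs) had both, and neuroblasts (NBs) had Dcx, Cd24a and Nrxn3. The aNSC, TAP, NB and GLU gates also required that Sox10 be absent or nearly so, and these marker genes are no result between gates. The other gates were cycling Eomes-positive glutamatergic (GLU) progenitors, oligodendrocyte progenitors (OLs, with Pdgfra and Sox10), astrocytes (Astros, with S100b and Aqp4), ependymal cells, endothelial cells and microglia.

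The libraries of P2, P12 replicate 1, P12 replicate 2 and P22 kept 4027, 7004, 4596 and 4230 cells, at medians of 14303, 11853.5, 13899.5 and 11996 UMIs, and values are given in this order below. Between 46.1% and 57.6% of the cells of a library met 1 gate, and pairs of libraries shared 3 to 8 cell barcodes. P12 replicate 2 stood apart, with 5 NBs and 2 OLs against 157 and 112 in P12 replicate 1. Only the OL, ependymal, endothelial and microglial lists had every marker highest in their own gate in every library with such cells. In the aNSC gate 0 to 2 of 6 markers of its list were highest there, and the TAP gate had 0 to 3 of 6, so these names stand for the threshold rule. At P2 the aNSC list summed to 3425 CPM in its own gate and to 16160 CPM in the qNSC gate. In P12 replicates 1 and 2 it summed to 2339 and 2506 CPM in its own gate, against 3572 and 3830 CPM in Astros. At P22 its own gate had the highest sum, at 2084 CPM. The qNSC list (9 markers) had a higher sum in Astros than in qNSCs in all 4 libraries, from 1 Astro at P2. The name of the Astro gate therefore also stands for its threshold rule. Levels are in CPM, the UMIs of a gene scaled to the total UMIs summed over a gate with at least 20 cells in a library, intervals in brackets are exact 95% Poisson intervals for a level and exact Clopper-Pearson intervals for a share, and both cover counting error only. Tests compare the sums of gates within libraries, with library as block. Their p-values weigh a difference against the variation left after gate and library, over the gates and ages of a fit.

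The promoters of Egfr, Erbb4 and Tgfa are shown because these genes had clear highest gates, Egfr the aNSC and TAP gates, Erbb4 the NB and OL gates and Tgfa the OL gate. They run from 250 bases before to 50 bases after the annotated start (RefSeq, GRCm38.p6), 5′ to 3′ on the strand of the gene. Capitals mark a match to AACAAT, a Sox-type motif, read on either strand.
Egfr promoter, chr11:16751953-16752252, + strand: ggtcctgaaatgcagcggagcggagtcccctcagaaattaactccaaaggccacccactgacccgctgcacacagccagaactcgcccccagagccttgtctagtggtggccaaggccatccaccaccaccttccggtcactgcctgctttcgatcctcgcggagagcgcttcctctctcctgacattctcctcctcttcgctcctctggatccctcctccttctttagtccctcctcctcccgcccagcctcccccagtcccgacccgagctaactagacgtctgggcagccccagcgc
Erbb4 promoter, chr1:69108010-69108309, - strand: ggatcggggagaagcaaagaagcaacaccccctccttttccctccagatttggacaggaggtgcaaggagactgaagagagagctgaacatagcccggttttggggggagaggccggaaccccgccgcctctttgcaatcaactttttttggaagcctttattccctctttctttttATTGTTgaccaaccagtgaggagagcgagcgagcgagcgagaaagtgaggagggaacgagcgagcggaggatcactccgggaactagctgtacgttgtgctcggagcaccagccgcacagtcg
Tgfa promoter, chr6:86194972-86195271, + strand: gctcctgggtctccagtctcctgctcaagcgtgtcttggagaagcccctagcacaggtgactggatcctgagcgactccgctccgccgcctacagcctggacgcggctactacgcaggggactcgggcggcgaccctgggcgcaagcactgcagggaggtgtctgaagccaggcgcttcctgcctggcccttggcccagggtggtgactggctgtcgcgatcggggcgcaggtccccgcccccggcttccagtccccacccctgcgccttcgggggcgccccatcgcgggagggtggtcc
Of the 10 genes, 6 had a promoter that could be searched (Egfr, Erbb2, Erbb4, Tgfa, Btc and Nrg3). AACAAT was present in the Erbb4 promoter only, once, and in 3521 of all 32851 promoters (10.7%). The E-box CAGCTG was present in that of Btc only and in 5355 of all promoters (16.3%). These matches describe the letters of the window and are not measured binding sites.

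Receptors and ligands each had their own highest gates, and OLs and Astros were high in some of both. Egfr was highest in aNSCs and TAPs, Erbb4 in NBs and OLs, and Erbb3 in Sox10-positive cells (Sox10 marks the oligodendrocyte lineage). Among ligands, Nrg1 was highest in qNSCs, GLU progenitors and ependymal cells, Hbegf in Astros and endothelial cells, and Tgfa in OLs. At P22, however, Nrg1 was not higher in qNSCs than in aNSCs. In edgeR's quasi-likelihood tests, 9 of the 10 genes passed the filter on low counts, Btc being left out, and a call is a Benjamini-Hochberg adjusted p under 0.05 over all 13768 genes tested.

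**Figure D1:**
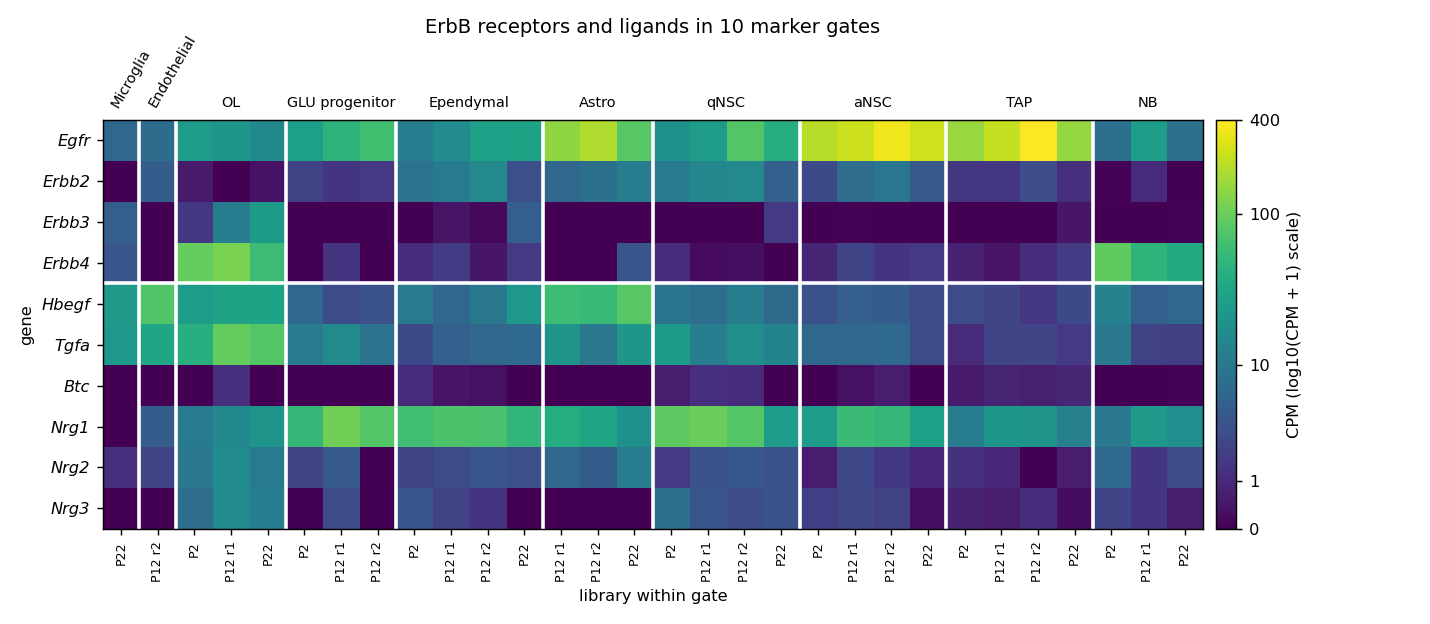
Level of each of the 10 genes (rows, receptors above the line, ligands below) in each gate and library (columns, r1 and r2 being the P12 replicates), in CPM on a log10(CPM + 1) colour scale. Egfr was brightest in the aNSC and TAP columns, at 152 to 391 CPM, Erbb4 in the OL and NB columns, at 36.4 to 116 CPM, and Btc was dark throughout, at no more than 1.24 CPM.

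Along the neurogenic lineage some receptors and ligands were called at each step. Contrasts that name the same gate share its sums and are not independent. Of the 9 genes tested, 6 were called between aNSCs and qNSCs (2 higher and 4 lower in aNSCs), against 47.1% of all genes (25% higher and 22.1% lower). Between TAPs and aNSCs 3 were called, all lower in TAPs, against 38.1% of all genes (19% higher and 19% lower). Between NBs and TAPs 6 were called (4 higher and 2 lower in NBs), against 49.9% of all genes (21.9% higher and 28% lower). The median log2 fold change over the 9 genes was -1.01, -0.98 and 1.16 in these contrasts, against -0.02, 0.03 and -0.09 over all genes. All 9 were called between OLs and aNSCs (6 higher and 3 lower in OLs), against 39.4% of all genes (16.4% higher and 22.9% lower), with a median of 2.66 against -0.14.

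Contrasts with the other gates followed the same fit. Between GLU progenitors and TAPs 3 of 9 were called (2 higher and 1 lower in GLU progenitors), against 21.5% of all genes (6.54% higher and 15% lower). Between Astros and qNSCs 3 were called (2 higher and 1 lower in Astros), against 12% of all genes (5.79% higher and 6.21% lower), and between ependymal cells and qNSCs 1 was called, lower in ependymal cells, against 4.88% of all genes (4.29% higher and 0.596% lower). The median log2 fold change over the 9 genes was 0.31, 0.06 and -0.26 in these contrasts, against -0.22, -0.07 and -0.01 over all genes. Over the genes with a UMI on both sides it was 0.34 for GLU progenitors (8 genes) and 1.10 for Astros (7 genes, without Erbb3 and Nrg3, which had no UMI in Astros).

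**Figure D2:**
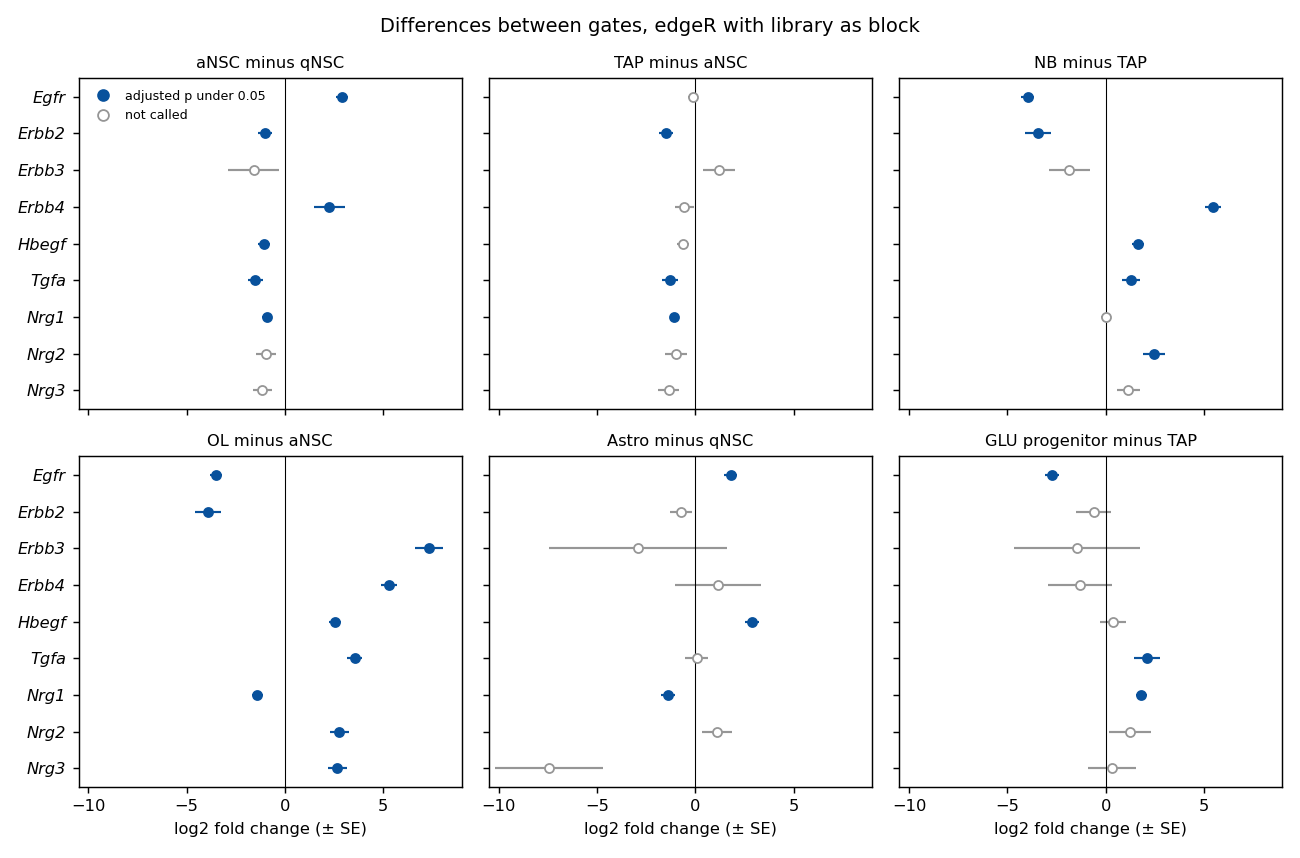
Log2 fold change with its SE (edgeR, library as block) of the 9 tested genes in 6 contrasts, first-named gate over second, filled where the adjusted p was under 0.05. Erbb4 lay furthest to the right in the NB contrast (5.47), and all 9 genes were filled in the OL contrast. Erbb3 and Nrg3 have no UMI in Astros, so their points in that panel depend on the prior count of the fit.

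Egfr (ENSMUSG00000020122, chr11:16752203-16918158), the receptor for EGF-type ligands, stood at 205, 249, 347 and 253 CPM in aNSCs, against 19.1, 25.6, 78.3 and 39.8 CPM in qNSCs. The gates did not overlap, and P12 replicate 2 was highest in both. The log2 fold change was 2.90 ± 0.28 (SE), with an adjusted p of 3.45e-08. The call held in all alternatives, from 2.62 to 3.13, in none of which Egfr was used to set the gates. In cells thinned to 5000 UMIs, between 48.9% and 62.9% of aNSCs of a library held an Egfr UMI, against 7.69% to 25.2% of qNSCs. As a measure of background from free RNA, 0 of 73 microglia at P22 and 0 of 24 endothelial cells in P12 replicate 2 held one after thinning, at median depths of 9378 and 13238.5 UMIs. These counts of 0 allow shares of up to 4.11% and 12.5%, and without thinning 2.74% and 8.33% of these cells held a UMI, at 6.38 and 7.19 CPM. The Egfr level of NBs at P2 and P22, given next, is close to these values and is not read as expression.

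TAPs, with 154, 229, 391 and 152 CPM, overlapped with aNSCs in Egfr level. The difference was -0.11 ± 0.24 on the log2 scale (adjusted p 0.762), with a 95% interval of -0.58 to 0.37. NBs had 7.79, 27.5 and 7.97 CPM at P2, in P12 replicate 1 and at P22, far below the TAPs of the same libraries, and the log2 fold change was -3.97 ± 0.32 (adjusted p 1.45e-09). The Egfr level of P12 replicate 1 NBs stood above that of the other NBs, and 72.0% of them held a Mki67 or Top2a UMI, against 18.4% and 30.8% of NBs at P2 and P22. The part of this difference in cycling in the Egfr level was not tested. GLU progenitors had 28.0, 46.2 and 63.7 CPM at P2 and in P12 replicates 1 and 2, also below the TAPs of every library, with a log2 fold change of -2.74 ± 0.35 (adjusted p 7.93e-06).

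**Figure D3:**
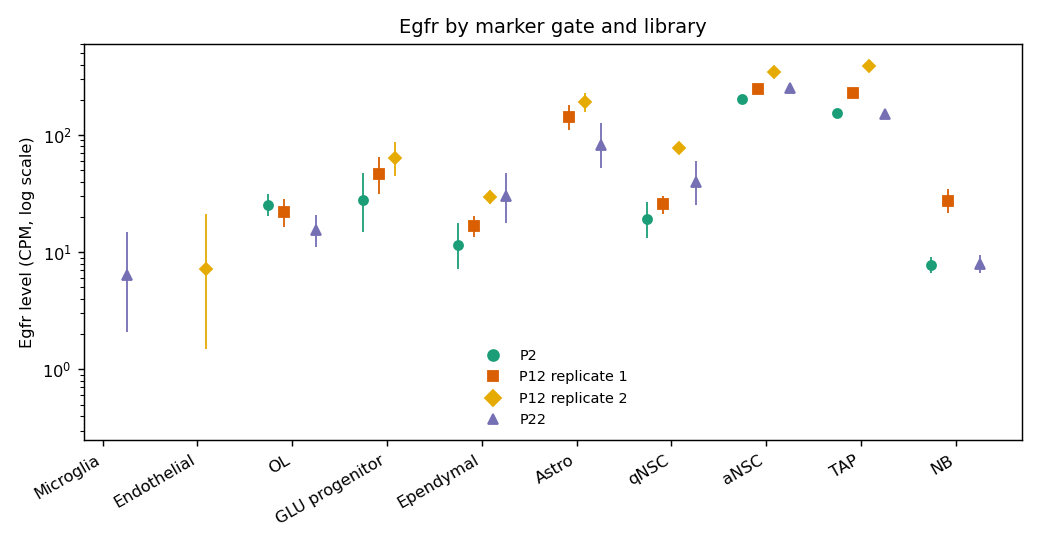
Egfr level in CPM (log axis) by gate, with 1 point per library and exact 95% Poisson intervals, for sums of at least 20 cells. The 4 aNSC points lie between 205 and 347 CPM and the 4 TAP points between 152 and 391 CPM, above the 4 qNSC points (19.1 to 78.3 CPM) and the 3 NB points (7.79 to 27.5 CPM).

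Astros also carried Egfr, with 143 and 191 CPM in P12 replicates 1 and 2 and 83.0 CPM at P22, against 25.6, 78.3 and 39.8 CPM in the qNSCs of these libraries. Astros were higher by 1.81 ± 0.33 on the log2 scale (adjusted p 0.000834), and the call held in all alternatives. After thinning, 40.9% to 65.1% of Astros held a UMI, although the gate had only 22 to 45 cells in a library. In ependymal cells, at 11.6, 16.7, 29.8 and 30 CPM, Egfr was not called against qNSCs (-0.93 ± 0.31, adjusted p 0.102), and OLs had only 25.5, 21.9 and 15.4 CPM at P2, in P12 replicate 1 and at P22. OLs lay far below the aNSCs of these libraries, with a log2 fold change of -3.51 ± 0.32 (adjusted p 6.11e-09).

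Cells of the aNSC gate were split after the data were seen into cycling cells, with a Mki67 or Top2a UMI, and non-cycling cells. Of 7 genes tested, 5 were called (1 higher and 4 lower in cycling cells), against 56.8% of all 12707 genes tested (25% higher and 31.8% lower), with medians of -0.62 over the 7 genes and -0.08 over all genes. Egfr stood at 213, 304, 426 and 267 CPM in cycling cells, against 184, 178, 229 and 234 CPM in non-cycling cells. The level was higher in cycling cells of every library, with a log2 fold change of 0.53 ± 0.16 (adjusted p 0.0103). The call was lost without P12 replicate 1 (0.45, adjusted p 0.134), without P12 replicate 2 (0.42, adjusted p 0.0561) and without the library block (0.53, adjusted p 0.176). Cycling cells were deeper, with median depths of 20281 to 30239.5 UMIs in a library against 10715 to 19879 UMIs, and after thinning to equal depth the share of cells with an Egfr UMI was 61.5%, 65.5%, 74.4% and 63.4% in cycling cells, against 65.3%, 39.2%, 38.5% and 38.2% in non-cycling cells. The thinned share was thus higher in cycling cells at P12 and P22 but not at P2, where the intervals overlap.

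Erbb2 (ENSMUSG00000062312, chr11:98412470-98437716), the receptor without a ligand of its own, was lower at each gate step from qNSCs to aNSCs, TAPs and NBs. These gates also differ in their share of cycling cells. Erbb2 stood at 2.86, 7.42, 9.44 and 4.24 CPM in aNSCs, against 11, 15, 15.5 and 5.19 CPM in qNSCs. Levels of aNSCs were lower in each library, though not by much at P22, where qNSCs had 3 UMIs. The difference was -1.01 ± 0.34 on the log2 scale (adjusted p 0.0191), and the call was lost without P12 replicate 1 (adjusted p 0.0713), without P12 replicate 2 (adjusted p 0.0800) and without the library block (adjusted p 0.125), with adjusted p from 0.000363 to 0.125 over all alternatives.

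TAPs had 1.60, 1.61, 3.13 and 1.24 CPM of Erbb2, below the aNSCs of each library, and were called lower by -1.50 ± 0.37 on the log2 scale (adjusted p 0.00325). This call was lost without P12 replicate 2 (adjusted p 0.0567) and without the library block (adjusted p 0.0535), and adjusted p ran from 8.63e-06 to 0.0567 over the alternatives. NBs had 0.0509, 1.09 and 0 CPM at P2, in P12 replicate 1 and at P22, against 1.60, 1.61 and 1.24 CPM in TAPs. In NBs 4 UMIs were counted over these libraries, 3 of them in P12 replicate 1, against 34 in TAPs, a ratio of 0.0711 (0.0183 to 0.199), called at an adjusted p of 0.000126. The fitted log2 fold change was -3.45, and -4.99 without P12 replicate 1 (adjusted p 5.65e-05). In OLs 3 UMIs were counted, against 200 in the aNSCs of the same libraries, a ratio of 0.0517 (0.0106 to 0.153), called at an adjusted p of 4.5e-05. Ependymal cells had 3.33 to 15.5 CPM and Astros 6.23 to 11.3 CPM in a library, and neither was called against qNSCs (-0.31 ± 0.36 and -0.72 ± 0.56, adjusted p 0.803 and 0.472). Within the aNSC gate Erbb2 was at 1.59, 4.89, 5.88 and 2.15 CPM in cycling cells, against 6.17, 10.7, 14.7 and 7.16 CPM in non-cycling cells. It fell in the cycling cells of all 4 libraries, by -1.34 ± 0.23 on the log2 scale (adjusted p 0.000128), and remained called in each of the 5 alternatives run for this split.

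Erbb3 (ENSMUSG00000018166, chr10:128567523-128589652), the neuregulin receptor with little kinase activity, was counted once among the 3067 aNSCs and once among the 980 qNSCs. In OLs it stood at 1.64 [0.603 to 3.57] CPM at P2, 11.6 [7.68 to 16.7] CPM in P12 replicate 1 and 25.2 [19.7 to 31.7] CPM at P22. These intervals do not overlap, and the order of the 3 libraries is that of age, but with 1 OL library per age no test of age was possible. OLs held 106 UMIs over these libraries, against 1 UMI in aNSCs, a ratio of 365 (64.2 to 14563), and the difference was called (adjusted p 8.58e-08). Microglia at P22 held 4 Erbb3 UMIs, all in 1 cell, and ependymal cells at P22 held 3, so low counts outside the lineage occurred in that library.

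Erbb4 (ENSMUSG00000062209, chr1:68032186-69108059), the neuregulin receptor with kinase activity, was high in NBs and in OLs. NBs had 89.9 [85.8 to 94.2], 47.1 [39.4 to 55.9] and 36.4 [33.5 to 39.5] CPM at P2, in P12 replicate 1 and at P22, against 0.801, 0.379 and 1.91 CPM in TAPs. The gates lay far apart in each library, and NB levels at P2 were above those of both later libraries beyond counting error. The log2 fold change was 5.47 ± 0.41 (adjusted p 4.66e-10), and the call held in all alternatives, from 5.05 to 6.55. After thinning, 27.7%, 18.1% and 13.5% of NBs held an Erbb4 UMI. Nearly all NBs were subpallial by the regional markers, and the 18 pallial NBs at P2 held no Erbb4 UMI, which allows up to 13.7 CPM, against 93.2 CPM in the 1536 subpallial NBs. Only 2, 0 and 2 pallial NBs were present in the other libraries, and this contrast could not be tested.

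In aNSCs Erbb4 was low, at 0.859, 2.40, 1.53 and 1.75 CPM, against 1.16, 0.203, 0.282 and 0 CPM in qNSCs. The difference rests on 104 UMIs in aNSCs against 4 in qNSCs, a ratio of 5.04 (1.91 to 18.8), and was called at an adjusted p of 0.0219. The call was lost without P12 replicate 1 (adjusted p 0.165), without P12 replicate 2 (adjusted p 0.110) and with qNSCs gated without Prom1 (log2 fold change 0.72, adjusted p 0.283), and adjusted p ran from 0.00105 to 0.283 over the alternatives.

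OLs carried Erbb4 at 95, 116 and 58.7 CPM at P2, in P12 replicate 1 and at P22, against 0.859, 2.40 and 1.75 CPM in the aNSCs of these libraries. This was a difference of 5.30 ± 0.39 on the log2 scale (adjusted p 2.74e-10). OL levels were also above the NB levels of the same libraries, with overlapping intervals at P2, and OLs were not tested against NBs. In Astros 1 Erbb4 UMI was counted in 3 libraries, and in GLU progenitors 1 UMI in 3 libraries. Both are at the level of counting noise in sums of this size.

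The OL gate held Pdgfra-positive progenitors, and a further set of Sox10-positive cells without Pdgfra, which met no gate, was added after the data were seen (43, 35 and 239 cells at P2, in P12 replicate 1 and at P22). Pdgfra is a marker of oligodendrocyte progenitors and is lost as they mature. Values in this set are a description without a test. Erbb3 stood there at 0, 13.3 and 32.7 CPM, Erbb4 at 42.9, 32.2 and 53.3 CPM and Tgfa at 36.2, 32.2 and 58.9 CPM. All 3 genes were thus present at P22 with and without Pdgfra. Nrg3 was different, with 2 UMIs in this set over 3 libraries (0, 0 and 0.369 CPM), against 7.39, 16.1 and 11.9 CPM in the OL gate. Egfr was uneven in this set, at 20.1 and 5.72 CPM at P2 and P22 but at 176 CPM in P12 replicate 1, where 26.5% of the 34 thinned cells held a UMI.

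**Figure D4:**
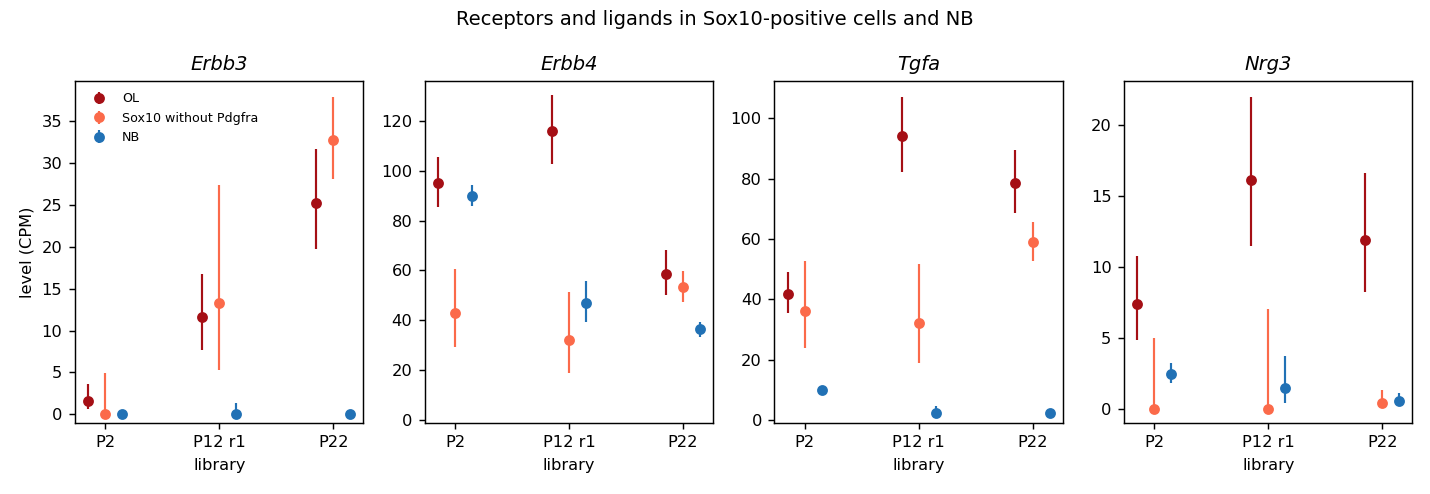
Levels (CPM, linear axes) of Erbb3, Erbb4, Tgfa and Nrg3 in the OL gate, in Sox10-positive cells without Pdgfra and in NBs, at P2, in P12 replicate 1 (P12 r1) and at P22, with exact 95% Poisson intervals. Erbb3 and Tgfa points of both Sox10-positive sets lie above the NB points at P22 (25.2 and 32.7 CPM of Erbb3 against 0.0628 CPM), and Nrg3 is raised in the OL gate alone.

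Tgfa (ENSMUSG00000029999, chr6:86195223-86275719), a membrane-anchored ligand of Egfr, stood at 41.9, 94.1 and 78.6 CPM in OLs at P2, in P12 replicate 1 and at P22, against 6.59, 6.56 and 3.00 CPM in aNSCs. Every OL library was above every aNSC library, with a log2 fold change of 3.56 ± 0.38 (adjusted p 7.52e-08). After thinning, 19.9% to 34.3% of OLs of a library held a Tgfa UMI. Endothelial cells of P12 replicate 2 had 33.6 [18.4 to 56.3] CPM and microglia at P22 had 23.0 [13.6 to 36.3] CPM, each from a single library.

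Between the stem cell gates Tgfa was lower in aNSCs than in qNSCs, and change within a cell over time was not measured. The 4 aNSC libraries had 3.00 to 6.62 CPM, against 24.9, 12.0, 18.3 and 13.8 CPM in qNSCs, without overlap, and the log2 fold change was -1.52 ± 0.38 (adjusted p 0.00211). TAPs had 1.07, 2.46, 2.46 and 1.69 CPM, again below the aNSCs of each library (-1.29 ± 0.42, adjusted p 0.0199), although this call was lost without P12 replicate 1 (adjusted p 0.0784) or P12 replicate 2 (adjusted p 0.0786), in a range of 0.00112 to 0.291 over the alternatives. Tgfa was called higher in NBs than in TAPs (1.27 ± 0.46, adjusted p 0.0248), but this came from P2, with 9.83 CPM in NBs against 1.07 CPM in TAPs, while the later libraries had 2.17 and 2.13 CPM in NBs against 2.46 and 1.69 CPM in TAPs. Without P2 the log2 fold change was 0.12 (adjusted p 0.818), in a range of adjusted p from 0.0114 to 0.818.

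GLU progenitors had 10.8, 15.9 and 8.61 CPM of Tgfa at P2 and in P12 replicates 1 and 2, against 1.07, 2.46 and 2.46 CPM in TAPs. GLU progenitors were higher by 2.10 ± 0.66 on the log2 scale (adjusted p 0.025), from 21 UMIs in GLU progenitors, and the call was lost without P12 replicate 1 (adjusted p 0.179) or P12 replicate 2 (adjusted p 0.0623), in a range of 0.00101 to 0.546. Ependymal cells had 2.76, 5.20, 6.25 and 6.67 CPM, below qNSCs in each library (-1.71 ± 0.43, adjusted p 0.0162). That call was lost without P12 replicate 1 (adjusted p 0.0681) or P12 replicate 2 (adjusted p 0.145), in a range of 0.00173 to 0.145.

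Hbegf (ENSMUSG00000024486, on chromosome 18), a heparin-binding ligand of Egfr and Erbb4, was highest in Astros and endothelial cells and was also present in OLs and microglia. Astros had 60.2 and 56.2 CPM in P12 replicates 1 and 2 and 83.0 CPM at P22, against 7.72, 11.5 and 6.92 CPM in the qNSCs of these libraries. The gates did not overlap, the log2 fold change was 2.90 ± 0.35 (adjusted p 1.64e-05), and the call held in all alternatives, from 2.57 to 3.60. Endothelial cells of P12 replicate 2 had 76.7 [52.5 to 108] CPM, with a UMI in 41.7% of the 24 thinned cells, and microglia at P22 had 24.2 [14.6 to 37.9] CPM. The summed endothelial marker list was at most 31.7 CPM in any other gate, against at least 6991 CPM in the endothelial gate. Endothelial cells reached 20 cells in P12 replicate 2 alone, and their contrast with qNSCs could not be tested.

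OLs had 25.5, 30.1 and 30.8 CPM of Hbegf at P2, in P12 replicate 1 and at P22, against 3.44, 5.15 and 3.00 CPM in aNSCs (2.54 ± 0.30, adjusted p 3.37e-07). The 3 OL libraries lay close together, at 28.8 ± 2.89 CPM (SD, n = 3). In the stem cell lineage Hbegf was low, at 3.00 to 5.15 CPM in aNSCs against 6.92 to 11.5 CPM in qNSCs, and it was called lower in aNSCs (-1.07 ± 0.31, adjusted p 0.00621). This call was lost with the study's own thresholds (-0.45, adjusted p 0.308) and after thinning (-1.02, adjusted p 0.0760), in a range of 0.00243 to 0.308. NBs had 13.2, 5.07 and 6.40 CPM, above the 2.94, 2.46 and 2.82 CPM of TAPs in each library (1.65 ± 0.33, adjusted p 0.000203).

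Btc (ENSMUSG00000082361, chr5:91357261-91402994), a further ligand of Egfr and Erbb4, was at most 1.24 CPM in any gate of any library. Its highest value rests on 3 UMIs in OLs of P12 replicate 1, and qNSCs held 11 UMIs over 980 cells. It failed the filter on low counts in each contrast and was not tested.

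**Figure D5:**
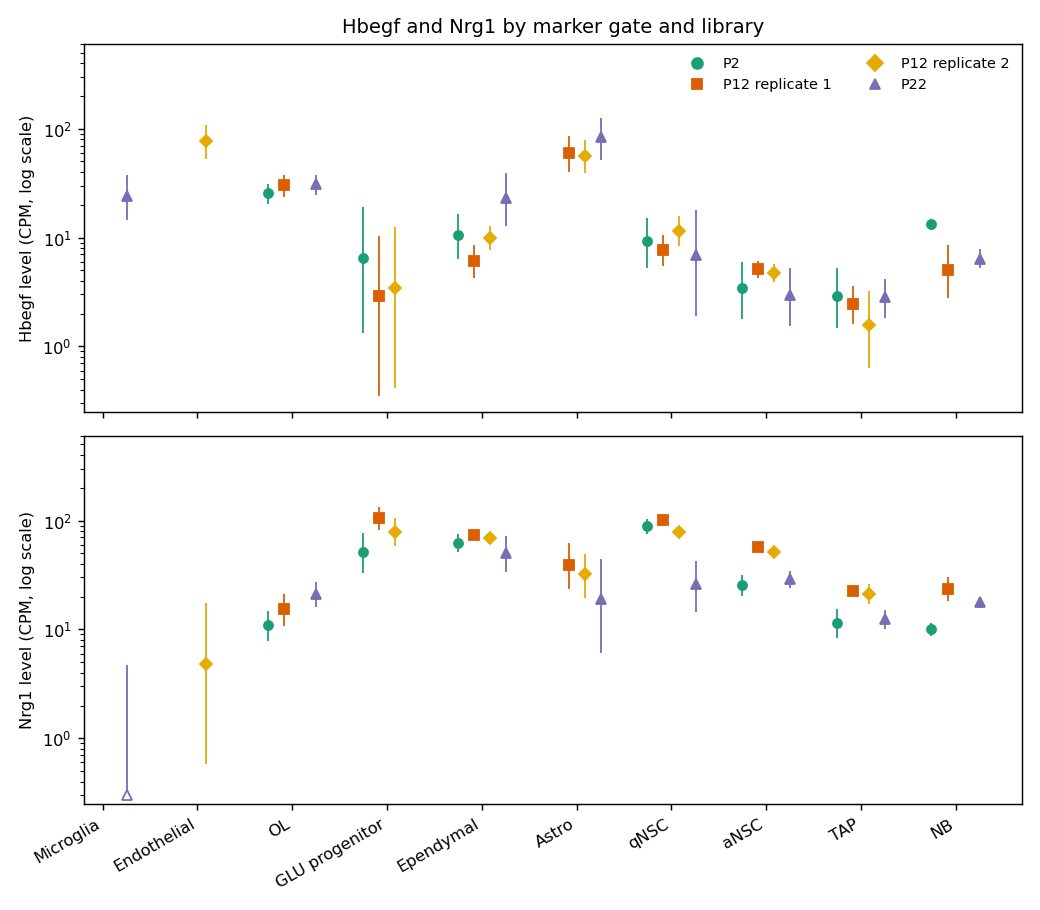
Levels of Hbegf (upper panel) and Nrg1 (lower panel) in CPM (log axes) by gate, with 1 point per library and exact 95% Poisson intervals, open symbols at the foot of the axis standing for 0 UMIs. Hbegf is highest in endothelial cells (76.7 CPM, 1 library) and Astros (56.2 to 83.0 CPM), and Nrg1 in qNSCs, ependymal cells and GLU progenitors (26.0 to 105 CPM), while the 73 microglia at P22 hold no Nrg1 UMI. The Nrg1 levels of aNSCs (25.5 to 57.7 CPM) overlap with this range, and at P22 aNSCs lie above qNSCs.

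Nrg1 (ENSMUSG00000062991, chr8:31814551-32884029), a neuregulin that binds Erbb3 and Erbb4, was lower in aNSCs than in qNSCs and lower again in TAPs. It stood at 25.5, 57.7, 52.0 and 29.0 CPM in aNSCs, against 88.6, 101, 78.3 and 26.0 CPM in qNSCs. It was lower in aNSCs in 3 of 4 libraries but not at P22, where qNSCs had 15 UMIs. The log2 fold change was -0.92 ± 0.23 (adjusted p 0.00184), called in all alternatives except after thinning (adjusted p 0.0517).

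TAPs had 11.5, 22.5, 21.2 and 12.4 CPM of Nrg1, below the aNSCs of each library, with a log2 fold change of -1.08 ± 0.23 (adjusted p 0.000952). NBs, at 10.0, 23.6 and 17.8 CPM, lay near the TAP level (0.04 ± 0.26, adjusted p 0.927), with a 95% interval of -0.47 to 0.54. GLU progenitors were the branch with a high level, at 51.7, 105 and 79.2 CPM at P2 and in P12 replicates 1 and 2, against 11.5, 22.5 and 21.2 CPM in TAPs. The log2 fold change was 1.81 ± 0.29 (adjusted p 0.000116), and the call held in all alternatives, from 1.69 to 2.16.

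Ependymal cells kept Nrg1 at 62.3, 73.0, 69.4 and 50 CPM, with no call against qNSCs (-0.26 ± 0.23, adjusted p 0.712). Astros had 39.4, 32.1 and 18.9 CPM in P12 replicates 1 and 2 and at P22, against 101, 78.3 and 26.0 CPM in qNSCs, and were called lower (-1.39 ± 0.35, adjusted p 0.0101). That call was lost without P12 replicate 1 (adjusted p 0.109), without P12 replicate 2 (adjusted p 0.0919), after thinning (adjusted p 0.116) and without the library block (adjusted p 0.0792), in a range of 0.000112 to 0.116. OLs had 10.9, 15.3 and 21.0 CPM, below the aNSCs of each library (-1.40 ± 0.28, adjusted p 0.000273). Microglia at P22 held 0 Nrg1 UMIs, which allows up to 3.83 CPM, and endothelial cells had 4.8 CPM. Within the aNSC gate Nrg1 stood at 23.4, 44.5, 42.5 and 26.6 CPM in cycling cells, against 30.9, 74.6, 66.0 and 32.2 CPM in non-cycling cells (-0.62 ± 0.10, adjusted p 5.72e-05), and this call was lost without the library block (adjusted p 0.163). Hbegf and Tgfa were also called lower in cycling cells (-0.70 ± 0.28 and -0.63 ± 0.25, adjusted p 0.0428 and 0.0392). Leaving out any 1 of the 4 libraries ended the Hbegf call (adjusted p 0.0715 to 0.191), and leaving out P12 replicate 1, P12 replicate 2 or P22 ended that of Tgfa (adjusted p 0.147, 0.290 and 0.113).

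Nrg2 (ENSMUSG00000060275, on chromosome 18) and Nrg3 (ENSMUSG00000041014, chr14:38368952-39473088) are neuregulins, Nrg3 being a ligand of Erbb4, and both were highest in OLs among the neurogenic and OL gates at P12 and P22. Nrg2 had 9.85, 16.9 and 10.8 CPM in OLs at P2, in P12 replicate 1 and at P22, against 0.573, 2.62 and 0.998 CPM in aNSCs (2.76 ± 0.48, adjusted p 6.29e-05). Nrg3 had 7.39, 16.1 and 11.9 CPM in these OLs, against 2.00, 2.53 and 0.25 CPM in aNSCs (2.66 ± 0.48, adjusted p 0.000115). Neither gene overlapped between the 2 gates. Nrg2 was also higher in NBs, at 6.72, 1.45 and 2.95 CPM against 1.33, 0.947 and 0.563 CPM in TAPs (2.46 ± 0.55, adjusted p 0.000662). Nrg3 was listed at 0 in Astros of all 3 libraries, which allows up to 4.82 to 11.3 CPM in a library, and was not called against qNSCs (adjusted p 0.0831). OLs were not the highest gate throughout. At P2 Nrg3 stood at 8.11 CPM in qNSCs, against 7.39 CPM in OLs. At P22 Nrg2 stood at 11.3 CPM in Astros, from 3 UMIs, against 10.8 CPM in OLs. The intervals of both pairs overlap.

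Regional identity was set by pallial (Emx1, Neurod1, Neurod6, Neurog2, Tbr1) or subpallial (Gsx2, Dlx2, Dlx5, Dlx6, Sp9, Gad1) transcription factors and enzymes, with none of the other set. Between subpallial and pallial qNSCs 0 of the 6 genes that could be tested were called, at an adjusted p of 1 each, against 0.0564% of 10629 genes (0.047% higher and 0.00941% lower). None of the 6 had an unadjusted p under 0.05 in edgeR, and DESeq2 called 0. In simulated data this contrast recovered 19.6% of log2 changes of 1 and 80% of those of 2. The lack of calls therefore does not show that the groups are alike. Their median log2 fold change was 0.02, beside -0.02 over all genes. Egfr stood at 21.0, 34.2 and 111 CPM in subpallial qNSCs of P2, P12 replicate 1 and P12 replicate 2, against 22.0, 28.1 and 60.3 CPM in pallial qNSCs. The difference in P12 replicate 2 was not shared by P2, and the fold change was 0.51 ± 0.36 (95% interval -0.20 to 1.21). For Nrg1 it was -0.09 ± 0.27 (95% interval -0.62 to 0.45). Subpallial sums held 21 to 41 cells.

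Across ages, aNSCs carried Egfr at each time point, and the values at P2 (205 CPM) and P22 (253 CPM) bracketed that of P12 replicate 1 (249 CPM) but not that of P12 replicate 2 (347 CPM). The gap between the P12 libraries was wider than that between P2 and P22. In TAPs the P12 libraries, at 229 and 391 CPM, were both above P2 and P22, at 154 and 152 CPM. In qNSCs Nrg1 was at 88.6 [75.1 to 104] CPM at P2, 101 and 78.3 CPM at P12 and 26.0 [14.5 to 42.8] CPM at P22, with the P22 interval below the others. Tgfa in OLs was lower at P2 than in both later libraries, and Erbb4 in NBs was higher at P2. Age and library cannot be told apart at P2 and P22, and per the file headers the P12 libraries were made with another software version than P2 and P22.

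Senders and receivers were also compared by the share of thinned cells with a UMI of any gene of a role. A UMI of Hbegf, Tgfa or Btc was found in 29.5%, 41.7% and 40.3% of OLs, 28.6%, 18.6% and 45.5% of Astros and 41.7% of endothelial cells, against 2.95% to 5.99% of aNSCs and 2.87% to 6.19% of TAPs. The aNSC and TAP gates, where Egfr was highest, were low in its ligands. A neuregulin UMI was found in 37.1%, 42.9%, 31.5% and 10.8% of qNSCs and in 23.5% to 34.0% of ependymal cells. Other gates also held neuregulin UMIs. Nrg1 alone was found in 10.0%, 24.4% and 24.6% of aNSCs at P2 and in P12 replicates 1 and 2. In GLU progenitors of these libraries it was found in 14.3%, 35.1% and 26.1%. At P22 it was found in 11.2% of aNSCs with Egfr and 17.4% of those without. Erbb3 or Erbb4 was found in 34.1%, 43.5% and 37.9% of OLs and in 27.7%, 18.1% and 13.6% of NBs, but in at most 1.27% of aNSCs and 0.955% of TAPs. In microglia at P22, 15.1% of cells held an EGF-type ligand UMI and 0 of 73 held one of Erbb3 or Erbb4.

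Within the aNSC gate, where cycling cells were called higher in Egfr and lower in Nrg1, the share of cells with Nrg1 was counted by Egfr, with no test. In P12 replicate 1, 19.4% [16.7 to 22.5] of thinned cells with Egfr held Nrg1, against 29.5% [26.3 to 33.0] of cells without Egfr. In P12 replicate 2 the shares were 19.7% [16.7 to 23.1] and 30.1% [26.3 to 34.2], and at P2 and P22 they were 9.09% against 11.5% and 11.2% against 17.4%, with overlapping intervals. Erbb2 behaved alike in P12 replicate 2, with 3.66% [2.34 to 5.44] of cells with Egfr against 9.43% [7.10 to 12.2] without. In P12 replicate 1 the Erbb2 shares were 2.80% [1.74 to 4.24] and 5.01% [3.55 to 6.84], with overlapping intervals. At P2 and P22 they were 2.27% against 3.85% and 4.31% against 4.96%, also with overlapping intervals. In NBs, Nrg1 was found in 0.897% [0.245 to 2.28] of cells with Erbb4 at P2, against 4.73% [3.58 to 6.11] of cells without, and in 4.17% [1.82 to 8.04] against 9.19% [7.64 to 10.9] at P22. The P22 intervals overlap, and these shares are a description over cells of 1 library each. Erbb4 went both ways with Egfr in NBs, with 45.2% [29.8 to 61.3] of cells with Egfr against 27.2% [25.0 to 29.5] without at P2. The Erbb4 shares were 5.56% [0.141 to 27.3] against 19.7% [13.4 to 27.4] in P12 replicate 1, and 2.04% [0.0517 to 10.9] against 13.9% [12.1 to 15.9] at P22. The Egfr level of NBs at P2 and P22 is close to the background given above, so no relation of Erbb4 to Egfr is read from these shares.

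Genes that act with the receptors were counted in lists chosen with earlier results of these data known. The shares of all genes called were 47.1% between aNSCs and qNSCs, 38.1% between TAPs and aNSCs, 49.9% between NBs and TAPs, 21.5% between GLU progenitors and TAPs, 12% between Astros and qNSCs, 4.88% between ependymal cells and qNSCs and 39.4% between OLs and aNSCs, and nothing particular to a list is read from its counts beside them. Of 10 genes induced by ERK signaling (Sprouty, Spred, Dusp and Etv genes), 5 were higher and 1 lower in aNSCs than in qNSCs, with a median log2 fold change of 0.65. The largest changes were those of Spry1 (3.54 ± 0.71, adjusted p 0.000273), a feedback inhibitor of receptor tyrosine kinases, Etv5 (1.63 ± 0.35, adjusted p 0.000483), an ETS transcription factor, and Dusp4 (1.55 ± 0.47, adjusted p 0.00880), a MAP kinase phosphatase. In TAPs 0 were higher and 5 lower than in aNSCs (median -0.54), with Etv4 at 5.53 ± 4.11 CPM in TAPs and 37.3 ± 18.9 CPM in aNSCs (SD, n = 4 each). Etv4 fell by 2.56 ± 0.34 on the log2 scale between these gates (adjusted p 5.98e-06). A link of the genes of this list to Egfr was not tested. In Astros 3 of the 10 were higher than in qNSCs and 0 lower (median 1.2), with Dusp6 at 95.6 ± 47.3 CPM in Astros (n = 3) and 15.6 ± 7.58 CPM in qNSCs (n = 4). In OLs 7 were higher than in aNSCs and 0 lower (median 0.91). Spry1 stood at 102 ± 13.3 CPM in OLs (SD, n = 3) and 8.35 ± 6.69 CPM in aNSCs (SD, n = 4). NBs had 3 higher and 4 lower than TAPs (median -0.56), with Dusp4 higher (3.13 ± 0.33, adjusted p 5.16e-08) and Etv4 and Spry4 lower (-2.97 ± 0.52 and -2.73 ± 0.45, adjusted p 5.04e-05 and 2.4e-05). GLU progenitors had 1 higher and 4 lower than TAPs (median -0.92), with Etv5 lower (-5.12 ± 0.86, adjusted p 0.000213), and ependymal cells had 0 higher and 2 lower than qNSCs (median -0.28), Etv4 and Etv1.

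Of 10 genes that shed or cleave the ligands, 9 were tested. In OLs 5 were higher than in aNSCs and 0 lower (median 0.61), among them the membrane proteases Adam12 (2.62 ± 0.35, adjusted p 1.76e-06), Adam9 (2.56 ± 0.21, adjusted p 1.55e-09) and Adam19 (2.50 ± 0.50, adjusted p 0.000361). In aNSCs 1 was higher than in qNSCs, Adam12 (3.82 ± 0.58, adjusted p 1.09e-05), and 3 were lower (median -0.19), with Rhbdf1, an inactive rhomboid that carries Adam17 to the cell surface, falling furthest (-1.28 ± 0.28, adjusted p 0.000667). In TAPs 2 were higher and 1 lower than in aNSCs (median -0.10), and in NBs 3 were higher and 2 lower than in TAPs (median 0.09), Adam12 by -4.30 ± 0.50 (adjusted p 2.37e-07). The other contrasts had 1 higher and 3 lower in GLU progenitors than in TAPs, 0 called between Astros and qNSCs, and 1 higher, Bace2, and 1 lower in ependymal cells than in qNSCs.

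Of 14 adaptors and regulators of receptor turnover, 13 were tested, and Lrig1, which promotes the degradation of ErbB receptors, was called in 5 of the 7 contrasts between gates. It stood at 20.3 ± 11.9 CPM in aNSCs and 35.0 ± 19.8 CPM in qNSCs (SD, n = 4 each), a difference of -0.76 ± 0.16 on the log2 scale (adjusted p 0.000349). It fell again in TAPs against aNSCs (-1.31 ± 0.16, adjusted p 2.25e-06) and in NBs against TAPs (-2.55 ± 0.24, adjusted p 8.91e-09), was lower in OLs than in aNSCs (-1.73 ± 0.21, adjusted p 4.37e-07) and was higher in Astros than in qNSCs (0.74 ± 0.19, adjusted p 0.0134). The list as a whole had 1 higher and 3 lower in aNSCs than in qNSCs (median -0.16), 1 higher and 4 lower in TAPs than in aNSCs (median 0.05), 5 higher and 4 lower in NBs than in TAPs (median 0.28) and 2 higher and 4 lower in OLs than in aNSCs (median 0.08). Rnf41, a ubiquitin ligase for Erbb3, was higher in NBs (1.41 ± 0.19, adjusted p 2.19e-06). Of 5 further ligands (Egf, Areg, Ereg, Epgn and Nrg4), 1 was tested and it was called in none of the contrasts.

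The genes most alike in pattern were sought by Pearson's r of log2(CPM + 1) over the 30 sums of a gate in a library, among 9787 genes with a mean of at least 10 CPM. The sums of a library share its depth and animals, and r is a description. Egfr was most like Aif1l (0.784), Ptch1 (0.777) and Ifrd1 (0.765), and Erbb2 most like Yap1 (0.939), Mgst1 (0.928) and S1pr1 (0.914). Erbb3 was most like Neu4 (0.877), Gal3st1 (0.862) and Pllp (0.831), and Erbb4 most like Gria4 (0.910), Brinp1 (0.889) and Adarb2 (0.872). Among ligands, Nrg1 was most like Ccdc136 (0.937), Sfrp1 (0.874) and Dok5 (0.871), Hbegf like Mfhas1 (0.875), Clptm1 (0.851) and Sec11c (0.820), and Tgfa like Sel1l (0.809), Sptlc2 (0.803) and Sec11c (0.774). Nrg2 was most like Pcdh7 (0.824), Ncam2 (0.788) and Mblac2 (0.779), and Nrg3 like Pcdh15 (0.873), Gria3 (0.808) and Rcn1 (0.784). The nearest genes to Btc, at a mean of 0.327 CPM, reached 0.596 (Btbd1), 0.584 (Adgrv1) and 0.581 (Fzd8), values that sparse counts limit.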

How the data were processed

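Droplet-based libraries of the dissected dorsal V-SVZ were deposited as 4 matrices of UMI counts per gene and barcode, made by the authors with Cell Ranger (3.1.0 in the headers of the P12 files, 5.0.1 in those of P2 and P22), and Seurat 3 is named in the submitters' notes. The genes and lists were chosen with earlier results of these data known.

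Barcodes outside 2000 to 8000 detected genes, or with a mitochondrial share above 10%, were dropped. Gates were set on ln(1 + UMIs × 10000 / total), 1 marker used in the gates is not reported here, a cell meeting several gates was left out, and no clustering and no doublet caller were used. UMIs were summed per library and gate of at least 20 cells (Python 3.11.15, numpy 2.4.6, scipy 1.17.1, pandas 2.3.3, matplotlib 3.10.9). The sums were tested with edgeR 4.0.16 in R 4.3.3 (limma 3.58.1): TMM, filterByExpr, quasi-likelihood tests with library as block, since the gates of 1 library come from the same animals, and Benjamini-Hochberg adjustment over all genes at 0.05. The method was tested on simulated data. Log2 changes of 1 were recovered at 19.6% (subpallial against pallial qNSCs) to 91.9% (cycling against non-cycling aNSCs). The share was 27.4% for Astros against qNSCs and 31.3% for GLU progenitors against TAPs. Libraries held 65323423 to 106402687 UMIs. Shares were also taken after thinning to 5000 UMIs a cell, and a count of 0 allows up to 3 counts. Named genes are the 10 members, up to 3 called genes of largest change per list and contrast, and the 3 genes most alike to each member. Nrdc is listed as Nrd1 in the files. Ages were not tested, with 1 library at P2 and at P22.

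Alternatives were DESeq2 1.42.0, RLE scaling, no filter on low counts, no library block, thinned cells, other gates and cell filters, P12 alone and each library left out. The cycling split and the Sox10-positive cells without Pdgfra were added after the data were seen.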

Additional observations from a re-analysis of the deposited data

Results flagged for a closer look

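Cells that met no gate (9591 cells over the 4 libraries) entered no test between gates and held UMIs of all 10 genes, each above the 0.0206 CPM that a count of 0 allows. Egfr stood there at 78.8 CPM over the 4 libraries, with 44.9 to 122 CPM in a library, and Nrg1 at 51.2 CPM (19.2 to 73.7). Tgfa was at 10.8 CPM (8.47 to 14.9), Hbegf at 8.58 CPM (6.42 to 10.5), Erbb2 at 7.56 CPM (1.42 to 15.1) and Erbb4 at 7.07 CPM (1.22 to 15.5). The lowest were Nrg2 at 2.90 CPM (1.99 to 4.33), Nrg3 at 2.28 CPM (0.676 to 3.52), Erbb3 at 1.43 CPM (0.0291 to 6.69) and Btc at 0.708 CPM (0.291 to 1.46). The Sox10-positive cells without Pdgfra, described with the OL gate, are among these cells.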

How the results depend on the processing

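For the 36 calls of the main fit, 384 fold changes under the alternatives kept their direction and the call. A further 43 kept their direction but lost the call, and 0 reversed. Genes that gained a call in an alternative are not in these counts. All 9 calls between OLs and aNSCs held in every alternative that tested them. The number of genes called between aNSCs and qNSCs was 2 after thinning. Between TAPs and aNSCs it was 6 with P12 alone, 1 after thinning and 1 (without P12 replicate 2) to 5 (without P2) with a library left out. Between GLU progenitors and TAPs it was 1 with the study's thresholds, where Egfr was not counted because it sets the gates. Between ependymal cells and qNSCs it was 2 without the filter, 2 with P12 alone, 2 without Prom1 in the qNSC gate and 0 without either P12 replicate. For cycling against non-cycling aNSCs it was 2 without either P12 replicate and 1 without the library block. The number of all genes called also changed with the setting. Between TAPs and aNSCs the main fit called 5241 of 13768 genes, and 4243 of 10987 were called after thinning. With P12 alone 7265 of 13561 were called, without P12 replicate 2 2487 of 13796 and without P2 6541 of 14082. For the cycling split, 7217 of 12707 were called in the main fit and 2310 without the library block. No change particular to the 10 genes is read from their counts. Without the replicate block, 7 of 36 calls were lost, and after thinning 7 of 25. With the study's thresholds Hbegf between aNSCs and qNSCs had an adjusted p of 0.308. The cause was not tested. Thinning lowered 131 of 138 shares by more than their interval. Endothelial cells against qNSCs and subpallial against pallial NBs could not be fitted, for want of cells.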
